A study of Mus musculus with 6 samples.

Results

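The genes described here are 35 components of T cell receptor signalling: the CD3 chains, the proximal kinases, the adaptors and exchange factors that relay the signal, and the phosphatases, adaptors and kinases that restrain it. They were chosen as a named list, of which 22 are positive regulators, 11 are negative regulators and 2, Cd6 and Lat2, have both roles. Their mRNA was measured on 6 bead arrays of mouse peripherally induced regulatory T (pTreg) cells, 3 from Blimp1 conditional knockout (CKO) and 3 from control (Ctrl) donors. Each gene was read from its brightest probe above background. Of the 35 genes, 34 had a probe named for them and 30 were tested, among 9593 genes tested in all.

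CKO cells came from Prdm1 flox/flox CD4-Cre+ mice, labelled C57BL/6, in which Prdm1, the gene for the transcriptional repressor Blimp1, is deleted by a Cre driven from the CD4 promoter and so in T cells at large rather than in Treg cells alone. Ctrl cells came from Prdm1+/+ CD4-Cre+ mice, so both groups carried the Cre. The donors also carried a Foxp3-GFP reporter. Per the study's methods, naive CD4+ T cells of CKO (Thy1.2+) and Ctrl (Thy1.1+) donors, young adults, were mixed in equal parts and transferred to C57BL/6 RAG1-/- hosts, which have no T or B cells of their own. Foxp3GFP+ cells were sorted from them weeks later, so both genotypes developed in the same hosts. One label field names the cells peripheral Treg and another names them iTreg. A label entry, P+I, stands on replicates 2 and 3 of both groups and not on replicate 1, and whether it stands for the PMA and ionomycin that the methods describe for other cells was not stated. Replicate 1 of both groups was on slide 1 and replicates 2 and 3 of both groups were on slide 2.

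T cell receptor signalling starts when the CD3 and zeta chains are phosphorylated by Lck and Fyn and recruit the kinase ZAP-70. ZAP-70 phosphorylates the membrane adaptor LAT and the cytosolic adaptor SLP-76, which are bridged by Gads and gather phospholipase C gamma, Grb2, Sos and Vav. The diacylglycerol made there activates RasGRP1 and protein kinase C theta, and through the Bcl10 and Malt1 complex the NF-kappaB pathway. Csk, tyrosine phosphatases, the Sts proteins, SLAP adaptors, diacylglycerol kinases and CD5 oppose these steps. Treg cells depend on the same pathway for their development and their suppressive programme.

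Intensities are the deposited values after quantile normalization over the 6 arrays and are given per array in the order of replicates 1, 2 and 3. The level taken as background lay between 6.18 and 9.55 intensity units across the 6 arrays. Prdm1 was read at 561, 341 and 704 in CKO cells and at 18.9, 50.9 and 49.2 in Ctrl cells, and where its probe lies relative to the deleted part was not known here. Foxp3 averaged 271 ± 142 in CKO cells and 278 ± 178 in Ctrl cells (SD, n = 3 each). Il2 was read at 8597, 11086 and 6980 in CKO cells and at 9308, 9867 and 13107 in Ctrl cells. Both arrays of replicate 1, without the P+I entry, lay within the range of the other 4. What this means for the P+I entry was not tested. The summed level of the 5 Treg markers tested, of 6 listed, was 5494 to 6652 in CKO cells and 10612 to 14830 in Ctrl cells. Ctla4 and Tnfrsf18 were the brightest of them on every array, with log2 fold changes of -1.12 and -1.23. Ikzf2 was lower as well (-1.45), Il2ra overlapped between the groups (-0.63), and Foxp3 stood at 0.03. The 4 T cell markers tested, of 6 listed, summed to 8190 to 11043 in CKO cells and 9648 to 13451 in Ctrl cells. The 4 of 8 B cell markers tested summed to 263 to 581 in CKO cells and 75.6 to 113 in Ctrl cells. Pou2af1 was the highest on every array, at 555, 228 and 382 in CKO cells and 54.9, 77.0 and 81.4 in Ctrl cells (log2 fold change 2.38). Cd79b, Ms4a1 and Blk lay between 6.18 and 15.8 on all arrays, with log2 fold changes of 0.05, 0.05 and 0.25. The difference in the sum was thus that of Pou2af1. Pax5 and Blnk were not above background. The 11 of 12 myeloid markers tested summed to 3252 to 25502 in CKO cells and 3936 to 36042 in Ctrl cells. The part of these marker levels in the results below was not tested, and on arrays of sorted populations fewer cells of a type and less RNA per cell cannot be told apart.

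Most of the 30 genes were somewhat lower in CKO cells, and 4 passed the thresholds used in the study, an unadjusted p under 0.05 and a difference of at least 1.5-fold. All 4 encode positive regulators, which were 19 of the 30 genes tested: Grap2, Malt1, Rasgrp1 and Lat. None of the 30 genes passed the thresholds on the higher side. By limma with Benjamini-Hochberg adjustment over all 9593 genes none of the 30 reached an adjusted p under 0.05, while 4 had an unadjusted p under 0.05. Over all genes, 4.34% passed the thresholds as lower and 3.09% as higher, and 0.271% had an adjusted p under 0.05, which sets the 4 of 30 (13.3%) beside a background of 4.34%. Arrays with the same replicate number deviated together, and with replicate number as a block 7 of the 30 genes passed the thresholds, all lower, where 7.28% of all genes did as lower and 4.75% as higher. In that fit 1 of the 30, Grap2, had an adjusted p under 0.05 by limma, where 1.91% of all genes did.

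The log2 fold change (CKO minus Ctrl) was below 0 for 22 and above 0 for 8 of the 30 genes, and their median was -0.31. Over all genes tested 47.6% lay below 0 and the median was 0.02. The 19 positive regulators tested had a median of -0.31, with 14 below 0, and the 9 negative regulators tested had a median of -0.33, with 6 below 0. The median of the negative regulators was nearer to 0 without CKO replicate 2 (-0.19), CKO replicate 3 (-0.13) or Ctrl replicate 1 (-0.21). On all 6 arrays it was -0.13 with the mean of a gene's probes above background, and -0.13 with no filter on dim probes. The positive regulators had a median of -0.24 with the mean of probes and with no filter. Without CKO replicate 2, CKO replicate 3 or Ctrl replicate 1 their median was -0.32, -0.30 and -0.33. Within the 3 pairs of arrays, the median difference of the positive regulators was -0.15, -0.24 and -0.40, and that of the negative regulators was -0.02, -0.48 and -0.25. The pair on slide 1 gave the smallest difference in both classes. In 17 of the 30 genes CKO was below Ctrl in all 3 pairs and in 3, Fyn, Ptprc and Sla, CKO was above Ctrl in all 3, against 18.1% and 19.5% of all genes.

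**Figure D1:**
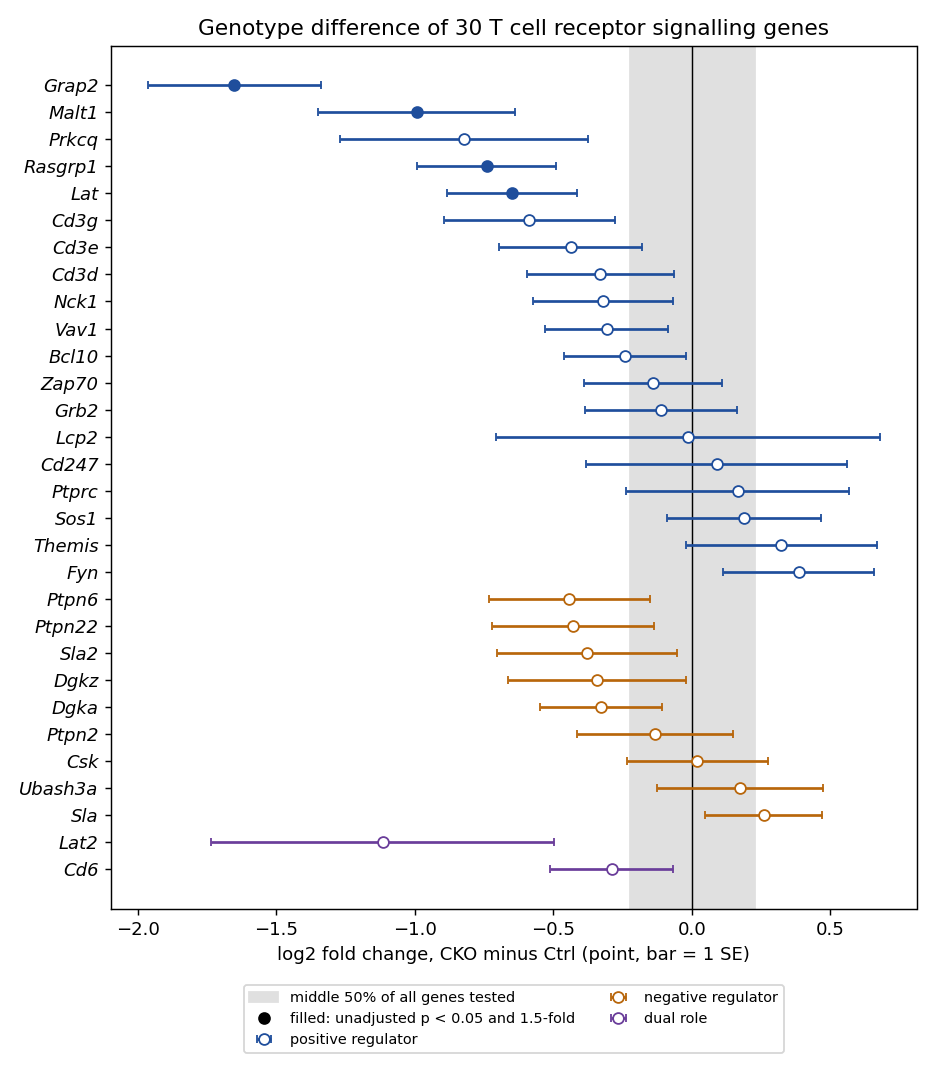
Log2 fold change (CKO minus Ctrl, x axis) of the 30 genes tested, by class, with bars of 1 standard error (n = 3 each). Filled points passed the thresholds, and the grey band holds the middle 50% of all 9593 genes. The 4 filled points lie between -1.65 and -0.65, all among the positive regulators.

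The 3 CD3 chains were well above background on every array and had values below 0 on the log2 fold change scale. Cd3d, the CD3 delta chain, was read at 3509, 4505 and 2561 in CKO cells and at 3899, 4397 and 4700 in Ctrl cells. Cd3e, the epsilon chain, was read at 3031, 2337 and 2991 in CKO cells and at 4760, 2952 and 3750 in Ctrl cells. Cd3g, the gamma chain, was read at 2117, 2022 and 1310 in CKO cells and at 3729, 2090 and 2436 in Ctrl cells. The groups overlapped for each of the 3 chains, and their log2 fold changes were -0.33, -0.44 and -0.59, none past the thresholds (unadjusted p of 0.25, 0.13 and 0.095 by limma). With the replicate block Cd3g passed the thresholds (unadjusted p = 0.039, adjusted p = 0.28 by limma). Cd3g, Cd3d and Cd3e lie together on chromosome 9, as does Thy1, and ranked 26, 28 and 29 by distance from Thy1 among the 547 tested genes of that chromosome. Since CKO and Ctrl donors differed in their Thy1 allele, genotype and the inherited surroundings of Thy1 cannot be told apart for these chains. The 50 tested genes nearest to Thy1 had a median log2 fold change of 0.08. Of these 50, 4 passed the thresholds as lower and 4 as higher, larger shares than the 4.34% and 3.09% of all genes.

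Cd247, the zeta chain, gave no stable direction. Its brightest probe was read at 498, 373 and 317 in CKO cells and at 733, 187 and 357 in Ctrl cells. CKO was lower in replicates 1 and 3 and higher in replicate 2, and the log2 fold change was 0.09. The other Cd247 probes above background gave -0.60 and -0.17.

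Of the proximal kinases, ZAP-70 differed least. Zap70 was read at 4995, 3668 and 3668 in CKO cells and at 5500, 4326 and 3780 in Ctrl cells, a log2 fold change of -0.14 ± 0.25 (SE, n = 3 each). The groups overlapped, and CKO was the lower array in each pair. Fyn, a Src family kinase that phosphorylates the receptor chains, averaged 308 ± 78.2 in CKO cells and 233 ± 40.3 in Ctrl cells (log2 fold change 0.38). Prkcq, protein kinase C theta, was near background, with 16.9, 9.16 and 31.1 in CKO cells and 24.9, 25.6 and 41.8 in Ctrl cells. CKO replicate 2 stood at its array's background level, and the log2 fold change of -0.82 passed the thresholds only with the replicate block (unadjusted p = 0.014, adjusted p = 0.18 by limma) among the fits of all 6 arrays with dim probes filtered. Lck had no probe under its name in the annotation used here, and Txk, a Tec family kinase, was above background on 0 of 6 arrays, so neither was tested. Ptprc, the CD45 phosphatase that activates Src kinases, averaged 78.4 ± 30.4 in CKO cells and 69.1 ± 23.9 in Ctrl cells (log2 fold change 0.17). Its second probe, above background on all 6 arrays, gave 0.87, and the mean of both gave 0.52.

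Of the 9 adaptor and exchange factor genes tested, 3 passed the thresholds, Grap2 (which encodes Gads), Lat and Rasgrp1, each with every CKO array below every Ctrl array. Grap2, which bridges LAT and SLP-76, was read at 13.7, 18.6 and 9.59 in CKO cells and at 34.6, 39.7 and 55.2 in Ctrl cells. The groups did not overlap, and CKO replicate 3 was close to its array's background level of 8.90. The log2 fold change was -1.65 ± 0.31 (SE, n = 3 each; Ctrl over CKO 3.14-fold), with an unadjusted p of 7.9e-04 and an adjusted p of 0.12 by limma. Its adjusted p was 0.049 once replicate number was a block. With no background floor and an offset of 16 the log2 fold change was -0.98. A second Grap2 probe gave -1.87, a value set in part by the background level, at which CKO replicates 2 and 3 were held.

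Lat was read at 1131, 1397 and 1133 in CKO cells and at 1566, 2010 and 2191 in Ctrl cells. The highest CKO array was below the lowest Ctrl array, and the log2 fold change was -0.65 ± 0.23 (unadjusted p = 0.025, adjusted p = 0.47 by limma). The second Lat probe, above background on 5 of 6 arrays, gave -0.35. Rasgrp1, the diacylglycerol-activated exchange factor for Ras, was read at 1499, 1120 and 967 in CKO cells and at 2180, 2052 and 1690 in Ctrl cells. Here too the groups did not overlap, and the within-pair differences were -0.54, -0.87 and -0.81 on the log2 scale. The log2 fold change was -0.74 ± 0.25 (unadjusted p = 0.019, adjusted p = 0.41 by limma), but the second Rasgrp1 probe, above background on 5 of 6 arrays, gave 0.28, and the mean of both probes gave -0.23.

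The promoters of Grap2, Lat and Rasgrp1 are shown because these adaptor and exchange factor genes passed the thresholds. Malt1, which also passed them, is not shown. Blimp1 binds DNA with a known motif core, GAAAG. It is known as a repressor, and the study notes that it can also activate genes. The 250 bases before each start are written 5′ to 3′ on the gene's strand, with any match to GAAAG or its reverse complement CTTTC in capitals, from RefSeq on GRCm38.p6.
Grap2 (chr15:80623233-80623482, + strand): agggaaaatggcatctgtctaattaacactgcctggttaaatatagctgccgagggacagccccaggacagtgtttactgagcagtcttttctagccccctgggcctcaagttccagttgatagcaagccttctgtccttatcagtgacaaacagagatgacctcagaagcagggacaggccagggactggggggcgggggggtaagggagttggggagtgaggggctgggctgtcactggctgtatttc
Lat (chr7:126369569-126369818, - strand): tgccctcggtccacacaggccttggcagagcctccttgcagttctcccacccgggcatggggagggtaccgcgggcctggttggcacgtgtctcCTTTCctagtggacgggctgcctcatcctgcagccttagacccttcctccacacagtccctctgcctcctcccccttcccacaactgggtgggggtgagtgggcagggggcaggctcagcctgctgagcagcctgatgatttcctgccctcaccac
Rasgrp1 (chr2:117342878-117343127, - strand): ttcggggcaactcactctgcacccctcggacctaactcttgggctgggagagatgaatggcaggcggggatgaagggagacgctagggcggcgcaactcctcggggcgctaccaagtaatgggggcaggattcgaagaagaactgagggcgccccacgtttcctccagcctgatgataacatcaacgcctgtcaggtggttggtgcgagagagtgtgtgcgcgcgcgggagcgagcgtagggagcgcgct
The Lat window held 1 match, beginning 156 bases before the start, and the Grap2 and Rasgrp1 windows held none. Searched on both strands, GAAAG was in 21 of 45 promoter windows of 30 of the 35 genes (46.7%) and in 51.5% of all 32851 windows of this length. The longer form AGNGAAAG, which contains GAAAG, was in 4 of the 45 (8.89%) and in 7.30% of all windows. A match is a description of the letters and not of a bound site.

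Other adaptors and exchange factors did not pass the thresholds. Vav1, a guanine nucleotide exchange factor, averaged 902 ± 90.2 in CKO cells and 1119 ± 155 in Ctrl cells (log2 fold change -0.31). Nck1, an adaptor to the actin cytoskeleton, averaged 118 ± 19.3 in CKO cells and 148 ± 29.2 in Ctrl cells (-0.32). Themis, a Grb2-binding protein needed in thymocyte selection, averaged 66.3 ± 13.8 in CKO cells and 55.8 ± 26.1 in Ctrl cells (0.32), with CKO higher in pairs 1 and 2 and lower in pair 3. Grb2 and the Ras exchange factor Sos1 were near background, above it on 3 and 4 of the 6 arrays, with log2 fold changes of -0.11 and 0.19. Values held at the background level alone give 0.09, because that level differed between arrays. Plcg1, phospholipase C gamma, was above background on 0 of 6 arrays.

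Lcp2, the gene for SLP-76, differed by replicate rather than by genotype on its brightest probe. It was read at 146, 547 and 571 in CKO cells and at 145, 485 and 667 in Ctrl cells. Both arrays of replicate 1 lay far below the other 4, the replicate means spanned 2.08 on the log2 scale, and the log2 fold change was -0.01. Another Lcp2 probe was lowest in replicate 3, at 58.3, 180 and 43.7 in CKO cells and 119, 114 and 35.4 in Ctrl cells. The remaining probe was lowest in replicate 1.

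Downstream, Malt1 was lower in CKO cells and its partner Bcl10 did not pass the thresholds. Malt1, the protease of the complex that leads to NF-kappaB, was read at 53.2, 101 and 78.0 in CKO cells and at 102, 215 and 152 in Ctrl cells. The highest CKO array and the lowest Ctrl array were almost level, and they came from different replicates. The within-pair differences were alike, at -0.93, -1.09 and -0.96, although the replicate means spanned 1.003 on the log2 scale. The log2 fold change was -0.99 ± 0.35 (SE, n = 3 each; unadjusted p = 0.023, adjusted p = 0.45 by limma), and the adjusted p with the replicate block was 0.051. Bcl10 averaged 772 ± 110 in CKO cells and 908 ± 79.1 in Ctrl cells (log2 fold change -0.24).

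**Figure D2:**
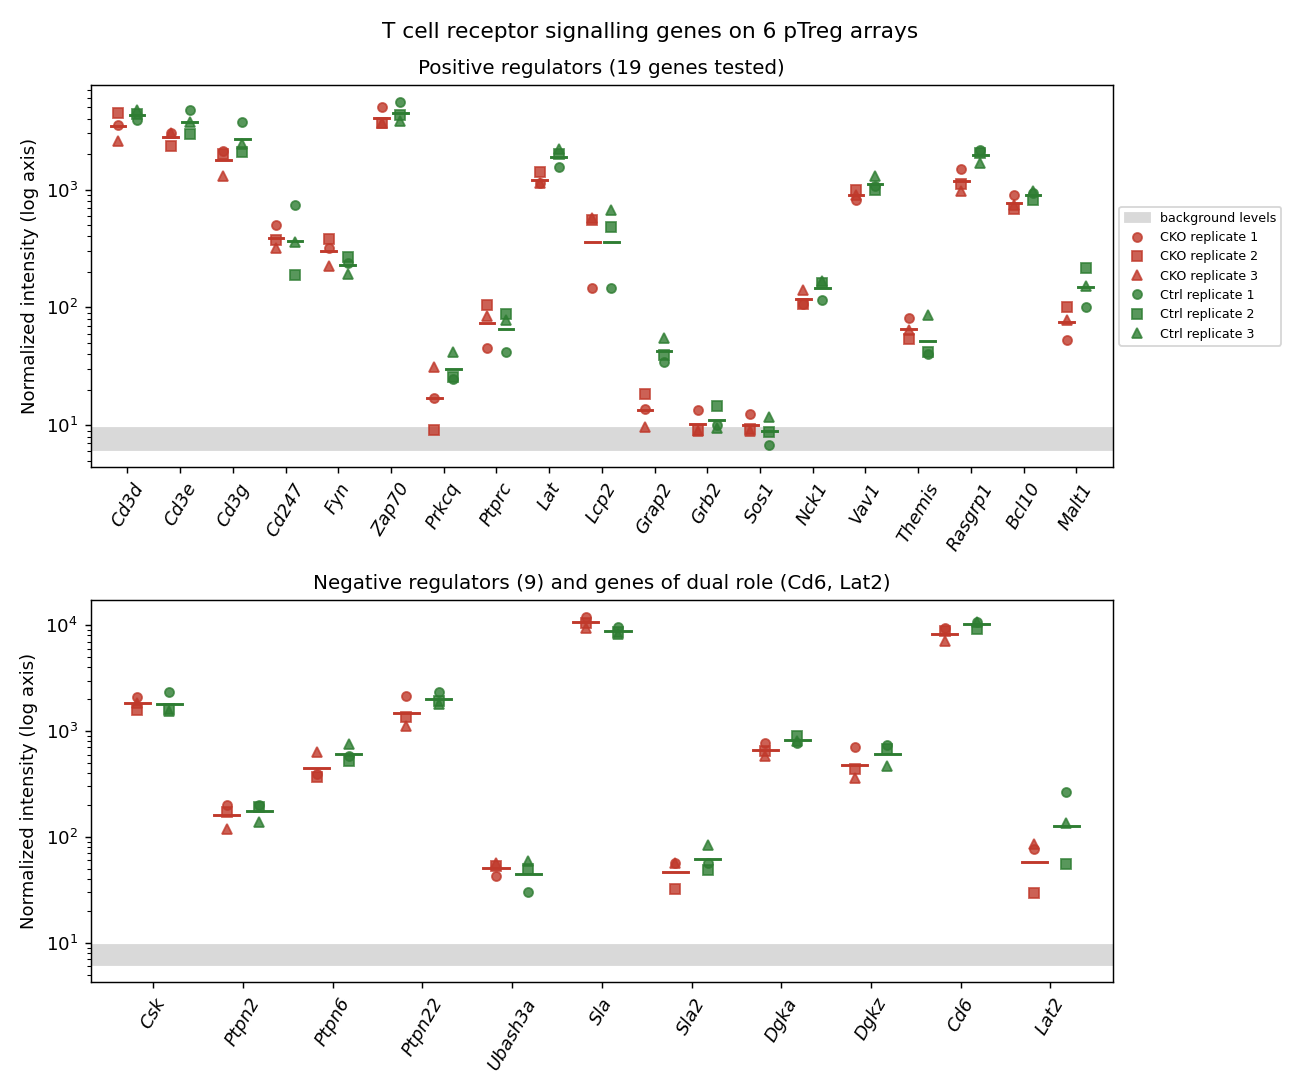
Normalized intensity (log axis) of the 30 genes tested on each array, CKO to the left of Ctrl for each gene, with replicates 1, 2 and 3 as circles, squares and triangles. Lines mark geometric means, and grey marks the range of background levels (6.18 to 9.55). Grap2, Lat, Rasgrp1 and Malt1 do not overlap between groups, while Lcp2 separates by replicate.

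None of the 9 negative regulators tested passed the thresholds, in this fit or with the replicate block. Of all genes, 4.34% passed as lower and 3.09% as higher in this fit, and 7.28% and 4.75% with the block. With only 9 genes, a count of none does not set this class apart from all genes. Csk, the kinase that inactivates Lck, averaged 1843 ± 268 in CKO cells and 1838 ± 450 in Ctrl cells, a log2 fold change of 0.02 ± 0.26 (SE). Of the tyrosine phosphatases, Ptpn22, the partner of Csk, averaged 1547 ± 537 in CKO cells and 2020 ± 305 in Ctrl cells (-0.43). Ptpn6, the gene for SHP-1, averaged 465 ± 151 in CKO cells and 620 ± 125 in Ctrl cells (-0.44), with its second probe at -0.64. Ptpn2, which dephosphorylates Lck and Jak kinases, averaged 163 ± 41.3 in CKO cells and 177 ± 34.5 in Ctrl cells (-0.13). The differences of Csk and Ptpn2 were smaller than either SD between arrays, and the groups overlapped for each of these 4 genes.

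Of the Sts genes and Cd5, only Ubash3a was above background on enough arrays to be tested. Ubash3a, the gene for Sts-2, was read at 42.4, 53.0 and 56.8 in CKO cells and at 30.3, 49.7 and 59.3 in Ctrl cells. The arrays overlapped, with CKO higher in replicates 1 and 2 and lower in replicate 3 (log2 fold change 0.17 ± 0.30). Ubash3b, the gene for Sts-1, was above background on 0 of 6 arrays. Cd5, a receptor that dampens signalling, was above background on 1 of 6 arrays, Ctrl replicate 1, and was not tested. It was read at 0.667, 2.77 and -10.2 in CKO cells and at 7.74, 5.38 and 2.51 in Ctrl cells.

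The Src-like adaptors Sla and Sla2, which promote receptor degradation with Cbl proteins, gave opposite signs. Sla averaged 10655 ± 1185 in CKO cells and 8879 ± 629 in Ctrl cells (log2 fold change 0.26), and Sla2 averaged 48.7 ± 14.5 in CKO cells and 62.8 ± 18.4 in Ctrl cells (-0.38). Their own probes also disagreed, with 0.88 and -0.66 from the other Sla probes and 0.19 from the other Sla2 probe. The diacylglycerol kinases, which remove the activator of RasGRP1, both lay below 0. Dgka averaged 664 ± 97.7 in CKO cells and 829 ± 67.0 in Ctrl cells (-0.33), and Dgkz averaged 504 ± 185 in CKO cells and 623 ± 140 in Ctrl cells (-0.34). The groups of Dgka did not overlap, though only narrowly, with 769 in CKO replicate 1 and 778 in Ctrl replicate 1. Together with Grap2, Lat, Rasgrp1 and Malt1 this made 5 of 30 genes (16.7%) whose groups did not overlap, all lower in CKO, where 7.08% of all genes did not overlap as lower and 5.95% as higher.

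Of the 2 genes of dual role, Cd6, a co-receptor that both organises and restrains signalling, averaged 8406 ± 1212 in CKO cells and 10228 ± 887 in Ctrl cells (log2 fold change -0.29). All 4 Cd6 probes gave values below 0, the lowest -0.48. Lat2, the LAT-like adaptor best known from B cells, mast cells and myeloid cells, was read at 76.3, 29.4 and 86.3 in CKO cells and at 267, 55.2 and 134 in Ctrl cells. CKO was lower in each pair, with differences of -1.80, -0.91 and -0.64 on the log2 scale, but the groups overlapped. The log2 fold change of -1.12 ± 0.62 did not pass the thresholds (unadjusted p = 0.11, adjusted p = 0.75 by limma), and with the replicate block it did (unadjusted p = 0.0038, adjusted p = 0.093). The second Lat2 probe gave -0.38.

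Myeloid markers varied between replicates, in part as Lat2 did. Their sum was 15178, 3252 and 25502 in CKO cells and 30838, 3936 and 36042 in Ctrl cells, lowest in replicate 2 of both groups, as Lat2 was. S100a8 was the highest of them on every array, and Cst3 and Csf1r were not lowest in replicate 2. Of the 11 markers, 5 (Lyz2, Lyz1, Cd14, Mpo and Elane) were highest in Ctrl replicate 1, as Lat2 was. Another 5 (S100a8, S100a9, Fcer1g, Tyrobp and Cst3) were highest in Ctrl replicate 3, and 1 (Csf1r) in CKO replicate 3. The mast cell and basophil markers summed to 110 to 202 in CKO cells and 123 to 256 in Ctrl cells, with Cpa3 and Mcpt8 at or near background on several arrays of both groups. Their part in the Lat2 values was not tested.

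**Figure D3:**
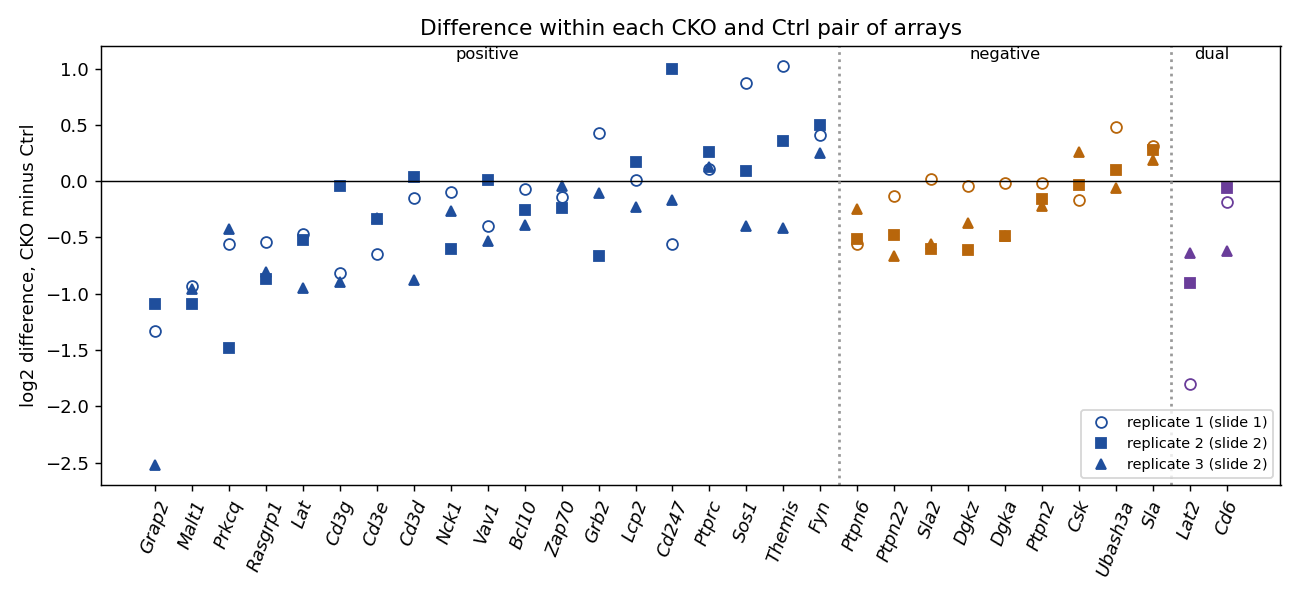
Log2 difference, CKO minus Ctrl, within each of the 3 pairs of arrays that share a replicate number, for the 30 genes by class (open circles, replicate 1; squares, replicate 2; triangles, replicate 3). Grap2, Malt1, Rasgrp1 and Lat lie below 0 in all 3 pairs, and Sos1 and Themis lie on both sides of it.

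The spread between replicates was set beside the genotype difference. The means of the 3 pairs spanned a median of 0.58 on the log2 scale over the 30 genes, between 0.18 (Dgka) and 2.08 (Lcp2), while the median size of the log2 fold change was 0.33. In 23 of the 30 genes (76.7%) the replicates spanned more than the genotype difference, and 78.8% of all genes did so. By noise alone, a span of 3 means of 2 arrays is wider than a difference of 2 means of 3 arrays. These sizes therefore do not rank replicate against genotype. Both arrays of replicate 1, on slide 1 and without the P+I entry, were below the other 4 for Ptprc, Lcp2 and Ubash3a and above them for Cd247, Zap70, Csk, Ptpn2, Ptpn22 and Dgkz. This holds for the brightest probes. The second Ptprc probe and 1 of the other Lcp2 probes did not place them lowest. The other Cd247 and Dgkz probes above background did not place them highest. Slide and label entry cannot be told apart. With slide 2 alone, which leaves 2 arrays a group, the same 4 genes, Grap2, Lat, Malt1 and Rasgrp1, passed the thresholds.

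Of 51 other genes listed from the pathway, 36 were tested. Of these, 27 lay below 0, with a median log2 fold change of -0.30. The study's thresholds were passed by 3 as lower (8.33%) and by 1 as higher (2.78%), beside 4.34% and 3.09% of all genes, and by limma 0 of the 36 had an adjusted p under 0.05, with 4 at an unadjusted p under 0.05. With the replicate block 5 passed as lower, with Sit1 and Rasa3 added, and 1 as higher, beside 7.28% and 4.75%. The 3 lower genes without the block were all negative regulators. Dok2, an adaptor that recruits Ras GTPase activating protein, was read at 297, 260 and 233 in CKO cells and at 539, 496 and 421 in Ctrl cells. Inpp5d, the SHIP1 lipid phosphatase, was read at 71.7, 42.1 and 51.2 in CKO cells and at 107, 99.6 and 116 in Ctrl cells. Rasal3, a Ras GTPase activating protein, was read at 545, 556 and 431 in CKO cells and at 828, 856 and 933 in Ctrl cells. The groups did not overlap for any of the 3, with log2 fold changes of -0.882, -0.999 and -0.780 and adjusted p of 0.23, 0.24 and 0.29 by limma.

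Tespa1, which links the receptor to LAT and phospholipase C gamma in thymocytes, was the single positive regulator of that list past the thresholds, and was higher in CKO cells. It was read at 808, 978 and 799 in CKO cells and at 349, 362 and 246 in Ctrl cells, with no overlap. Its log2 fold change was 1.45 ± 0.24 (SE, n = 3 each; unadjusted p = 3.7e-04, adjusted p = 0.079 by limma), and its adjusted p with the replicate block was 0.023. In that list the 24 positive regulators tested had a median log2 fold change of -0.14, with 17 below 0, and the 12 negative regulators tested had a median of -0.55, with 10 below 0. Dok2 and Rasal3, which restrain Ras, were among the lower genes together with Rasgrp1, which activates it.

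**Figure D4:**
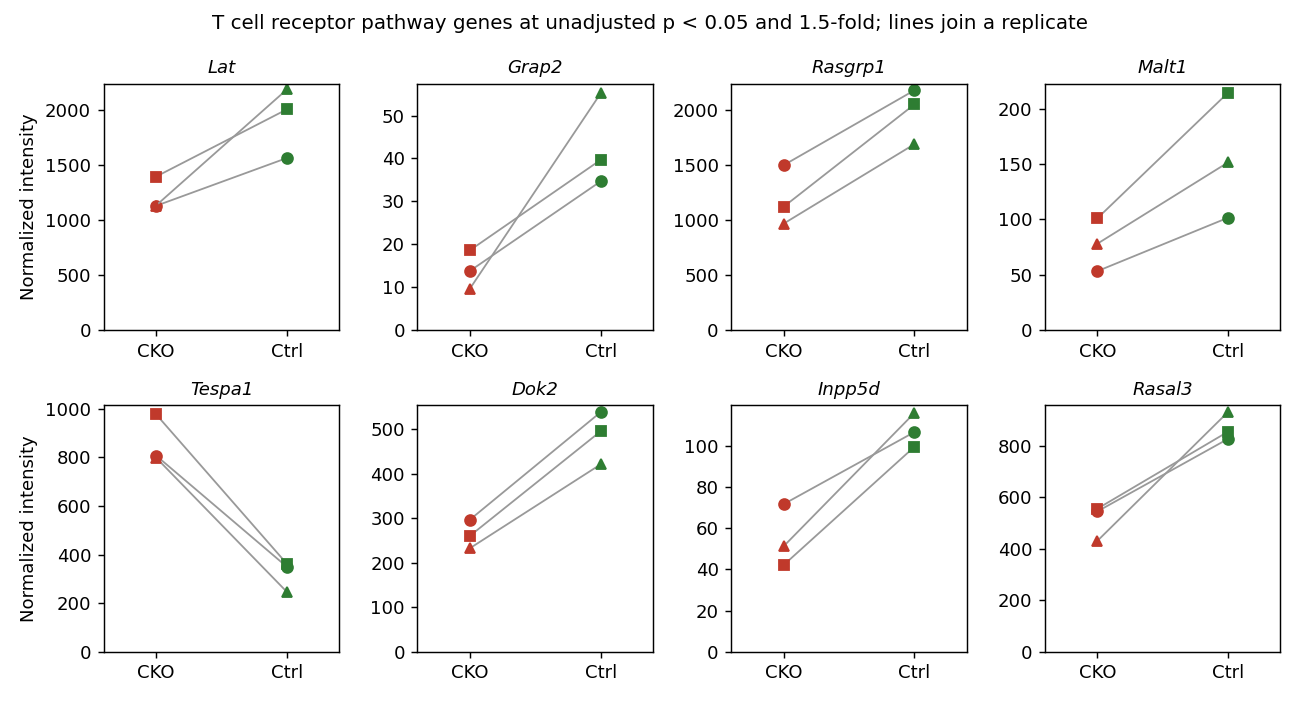
Normalized intensity (linear axis from 0) of the 8 T cell receptor pathway genes past the thresholds, CKO to the left of Ctrl, with lines joining arrays of one replicate number (circle, square and triangle for replicates 1, 2 and 3). In 7 genes every CKO array lies below every Ctrl array, and Tespa1 has CKO at 799 to 978 and Ctrl at 246 to 362.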

How the data were processed

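The authors deposited intensities from Illumina MouseWG-6 v2 bead arrays, 1 per sample, background subtracted and quantile normalized. Sorted deposited values were equal, within 0.02 units plus 0.1%, for at least 97.1% of ranks within a slide and at most 4.94% between slides, so the values were quantile normalized again over the 6 arrays. Background was set per array from 1504 probes for olfactory or vomeronasal receptors, at the level that 95% of them did not exceed. Lower values were set to it before log2. Probes with 1 gene symbol and above background on at least 2 arrays were kept (14811 of 45281) and the brightest of each gene taken (9593 genes). CKO was set against Ctrl with limma 3.58.1 in R 4.3.3 with no block (the study's methods name limma and no block), with Benjamini-Hochberg adjustment over all genes tested. The thresholds, an unadjusted p under 0.05 and 1.5-fold, were those of the study. The limma fit was tested on simulated log2 values, with noise independent between arrays. The normalization, background, filter and probe choice were not tested on simulated data. The series table carries no probe positions or sequences.

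With 3 arrays a group, precision is limited by the number of arrays. The study calls them biological replicates, and p-values measure the spread between these samples. Labels put the arrays of one replicate number together (replicate 1 of both groups by slide, replicates 2 and 3 by a shared day), and deviations from the group means correlated at 0.51, 0.49 and 0.56 within the 3 pairs, so a fit with replicate number as a block was run beside the main one. Alternatives were other scalings, backgrounds, filters, probe choices, variance priors, slide, and leaving out arrays.

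All 35 genes are named. Values per array are given for those past the thresholds, the CD3 chains, Zap70, Lat and the 4 drawn in the study (Grap2, Cd5, Ubash3a and Lat2), with none for Lck, and by addition for Cd247, Prkcq and Lcp2, chosen after their values were seen. Of the other pathway genes those past the thresholds are named. Members, lists and marker genes were chosen with earlier results of these data known.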

Additional observations from a re-analysis of the deposited data

How the results depend on the processing

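Over 17 alternatives, the median log2 fold changes of the positive regulators (-0.33 to -0.22) and of the negative regulators (-0.38 to -0.13) stayed below 0. The count of the 30 genes past the thresholds, 4 in the fit reported, was 2 with the mean of a gene's probes above background, 7 with the replicate block and 2 to 4 when 1 array was left out, with 2 without Ctrl replicate 2. Grap2 passed the thresholds under all 17 alternatives, with an adjusted p between 0.0069 and 0.56 and a log2 fold change between -1.88 and -0.98. Lat missed them in 6 (75th percentile scaling, the mean of probes, and without CKO replicate 1, CKO replicate 3, Ctrl replicate 2 or Ctrl replicate 3), Rasgrp1 in 5 (the mean of probes, and without CKO replicate 2, CKO replicate 3, Ctrl replicate 1 or Ctrl replicate 2) and Malt1 in 3 (without CKO replicate 1, Ctrl replicate 2 or Ctrl replicate 3). The count at an adjusted p under 0.05, 0 in the fit reported, was 1 with no filter on dim probes and 1 with the replicate block, Grap2 in each. Among the other genes, Cd3g, Lat2 and Prkcq passed the thresholds with the replicate block, which changed no other call by them. Cd3g also passed with slide as a factor, Lat2 and Prkcq with no filter, Ptpn22 without CKO replicate 1, Prkcq and Ptpn6 without CKO replicate 3, Lat2 without Ctrl replicate 2, and Themis, as higher, without Ctrl replicate 3. The cause of these changes was not tested.

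Over all genes, 26 had an adjusted p under 0.05. That count was 43 with an offset of 16 in place of the background level, 150 with no filter, 183 with the replicate block, 16 with slide as a factor, 0 on slide 2 alone, where 611 genes passed the thresholds, and 1 to 10 when 1 array was left out. Genes past the thresholds numbered 712, and 1154 with the replicate block. Log2 fold changes of 20 of the 30 genes kept their sign under every alternative run. Signs turned for Grb2 (0.14) with background at the 99th percentile, for Lcp2 (0.028) and Cd247 (-0.22) with the mean of probes, and for Sos1 (-0.14) and Themis (-0.029) on slide 2 alone. When 1 array was left out, values ranged from -0.39 to 0.59 for Cd247, -0.087 to 0.21 for Csk, -0.67 to 0.63 for Lcp2, -0.16 to 0.52 for Ptprc, -0.30 to 0.084 for Ptpn2, -0.11 to 0.37 for Ubash3a, -0.28 to 0.0079 for Zap70 and -0.30 to 0.078 for Grb2. Signal over background limits Grb2, Sos1 and Prkcq, which had no value when all 6 arrays had to be above it.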
